A study of Mus musculus with 6 samples.

Results

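The 10 genes described here encode the receptors for the colony-stimulating factors and FLT3 ligand (Csf2ra, Csf2rb, Csf2rb2, Csf1r, Csf3r and Flt3), the kinase and transcription factor that act below the GM-CSF receptor (Jak2 and Stat5a), and the genes of a pair of cytokine-inducible feedback inhibitors (Cish and Socs2). They were chosen by name, out of 57132 genes in the count table, and each matched 1 Ensembl identifier through GENCODE mouse release 39. mRNA was sequenced from dendritic cell cultures grown from the marrow of female C57BL/6 mice aged 6 to 8 weeks. All cultures received recombinant murine GM-CSF at 15 ng/mL and dialyzed serum, were fed on days 2 and 4, and were lysed for RNA on day 5. The group 0Q had no queuine added and the group 100Q had 100 nM queuine, with 3 libraries each. Queuine is a nucleobase that mammalian cells take up and insert into certain tRNAs, where it forms queuosine. The labels say that wells were plated in triplicate and do not name separate animals, so p-values here reflect only how much these cultures varied, and that variation may be technical.

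GM-CSF binds a receptor made of an alpha chain (Csf2ra), which is particular to this cytokine, and a beta chain (Csf2rb), which the receptors for IL-3 and IL-5 also use. Mice carry a further beta chain gene, Csf2rb2, whose product works with the IL-3 receptor only. The beta chain holds the kinase JAK2, which on binding of the ligand phosphorylates STAT5, and STAT5 then enters the nucleus and turns on genes such as Cish and Socs2, whose proteins dampen cytokine signalling. CSF1R, CSF3R and FLT3 are the receptors for M-CSF, G-CSF and FLT3 ligand, and are known for macrophages, neutrophils and dendritic cell progenitors, respectively.

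Total counts per library ranged from 3675931 to 6755398 for 0Q and from 4484793 to 19386617 for 100Q. All 10 dendritic cell markers on the list were detected, and their summed level was 195 to 240 CPM (TMM-scaled counts per 1000000 counts) in 0Q and 252 to 271 CPM in 100Q. Itgax, which encodes CD11c, averaged 98.6 CPM without queuine and 140.2 CPM with it, whereas Zbtb46, a transcription factor of classical dendritic cells, had 1.17 and 2.46 CPM. Kmo and Batf3, also on that list, were lower with queuine, at 12.9 and 6.21 CPM and at 15.6 and 10.9 CPM. Without Itgax, a sum taken after seeing the data, the list had 127, 125 and 121 CPM in 0Q against 121, 105 and 132 CPM in 100Q, so the groups overlapped. The 12 neutrophil markers, which include granule proteins, summed to 17367 to 20369 CPM in 0Q against 14586 to 17597 CPM in 100Q. The 10 macrophage markers summed to 1232 to 1444 and 1062 to 1453 CPM, and the 6 progenitor markers to 28.9 to 43.6 and 27.2 to 35.3 CPM. The 8 mast cell and basophil markers are of cells that also use the beta chain. They summed to 466 to 516 CPM without queuine and 354 to 453 CPM with it. Of these 8, 6 had log2 fold changes of 100Q over 0Q below 0 and 2 above, where 50% of all tested genes lay above 0. The groups overlapped for each of the 8. The 5 eosinophil markers summed to 1373 to 1656 CPM in 0Q and 1249 to 1664 CPM in 100Q. Most of that sum was Prg2, with means of 1382 CPM in 0Q and 1316 CPM in 100Q. Epx had 64.0 and 63.6 CPM and Ear6 had 61.8 and 49.9 CPM. Siglecf had only 3.87 and 3.22 CPM, and Ccr3, at 0.433 and 0.521 CPM, was not tested. The 5 T cell markers summed to 2.47 to 6.11 CPM over all libraries, with Cd3e at 0 in all 6 and Cd3d at 3.49 and 2.01 CPM. The cultures thus held mRNA of several myeloid lineages, and in such bulk samples fewer cells of a type and less RNA per cell cannot be told apart.

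The first sequences shown are of Csf2rb and Csf2rb2, because the values of both genes depend on how reads are divided between them. The genes lie side by side on chromosome 15 on opposite strands (GRCm39). Csf2rb (ENSMUSG00000071713) spans 78209952 to 78238047 and Csf2rb2 (ENSMUSG00000071714) spans 78166707 to 78189921. Their coding sequences, of 2688 and 2634 bases, were identical at 95.2% of 2628 aligned bases, with a longest identical run of 242 bases. The stretch of 90 coding bases within 1 exon that differs most lies in coding exon 3, at chr15:78223097-78223186 on the plus strand for Csf2rb and chr15:78178545-78178634 on the minus strand for Csf2rb2. It is printed 5′ to 3′ along each gene, and capitals mark the 16 bases that differ.
Csf2rb: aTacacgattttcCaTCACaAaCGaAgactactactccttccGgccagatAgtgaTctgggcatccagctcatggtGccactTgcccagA
Csf2rb2: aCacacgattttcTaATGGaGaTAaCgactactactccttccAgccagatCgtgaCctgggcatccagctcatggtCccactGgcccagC
Over the whole Csf2rb transcript, 18.9% of the windows of 50 bases also occurred in a transcript of Csf2rb2. A read that lies in such a window fits both genes, and the expected counts divide it between them.

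The second set is of promoters that hold the letters TTCNNNGAA, the core of the DNA element that STAT5 binds. RefSeq promoter windows (GRCm38.p6), from 250 bases before to 50 bases after the start of a gene, were matched for 7 of the 10 genes. Csf2rb, Csf1r and Socs2 had no entry. TTCNNNGAA reads alike on both strands and was found in the windows of Cish, with 2 matches, and of Csf2rb2, with 1. Of 32851 windows in the table, 8.30% held at least 1 match and 0.457% held at least 2. The matches are shown in capitals in stretches printed 5′ to 3′ along the gene. The Cish stretch lies on the plus strand at chr9:107296509-107296678 and ends 20 bases after the RefSeq start, and the matches begin at offsets 0 and 11 from that start, with the start base itself at 0. The Csf2rb2 stretch lies on the minus strand at chr15:78305722-78305821 and ends at the base before the start, with its match beginning at offset -15.
Cish: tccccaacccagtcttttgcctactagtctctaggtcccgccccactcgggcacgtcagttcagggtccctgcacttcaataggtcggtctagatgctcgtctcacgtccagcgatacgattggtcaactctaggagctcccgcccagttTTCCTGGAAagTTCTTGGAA
Csf2rb2: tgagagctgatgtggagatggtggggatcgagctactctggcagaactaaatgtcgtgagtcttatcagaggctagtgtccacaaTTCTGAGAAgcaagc
A match describes the letters of these windows and does not show binding.

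All 10 genes passed the filter on low counts, Flt3 mainly through its reads in 100Q, and none passed the test between 100Q and 0Q. With edgeR's quasi-likelihood test over 10554 genes, 0 of the 10 had an adjusted p under 0.05, and 0 of all tested genes did (0%). DESeq2 and limma-voom also called 0 genes, with 356 and 310 of all genes at an unadjusted p under 0.05, against 309 by edgeR. At an unadjusted p under 0.05 there was 1 of the 10 by edgeR, Stat5a, higher in 100Q, where the share of all tested genes with such a p was 2.93%, with 1.77% higher and 1.16% lower in 100Q. Estimates lay above 0 for 7 of the 10 and below for 3, with a median log2 fold change of 100Q over 0Q (called the estimate from here on) of 0.26, where 50% of all tested genes lay above 0 and their median was 0.00. The 3 libraries of 100Q lay wholly above those of 0Q for Stat5a and Cish and for no other of the 10. Over all tested genes the groups did not overlap for 8.24%, with 100Q above for 4.41% and below for 3.84%. The plot of levels shows this separation for Stat5a and Cish and the overlap for the other 8 genes.

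**Figure D1:**
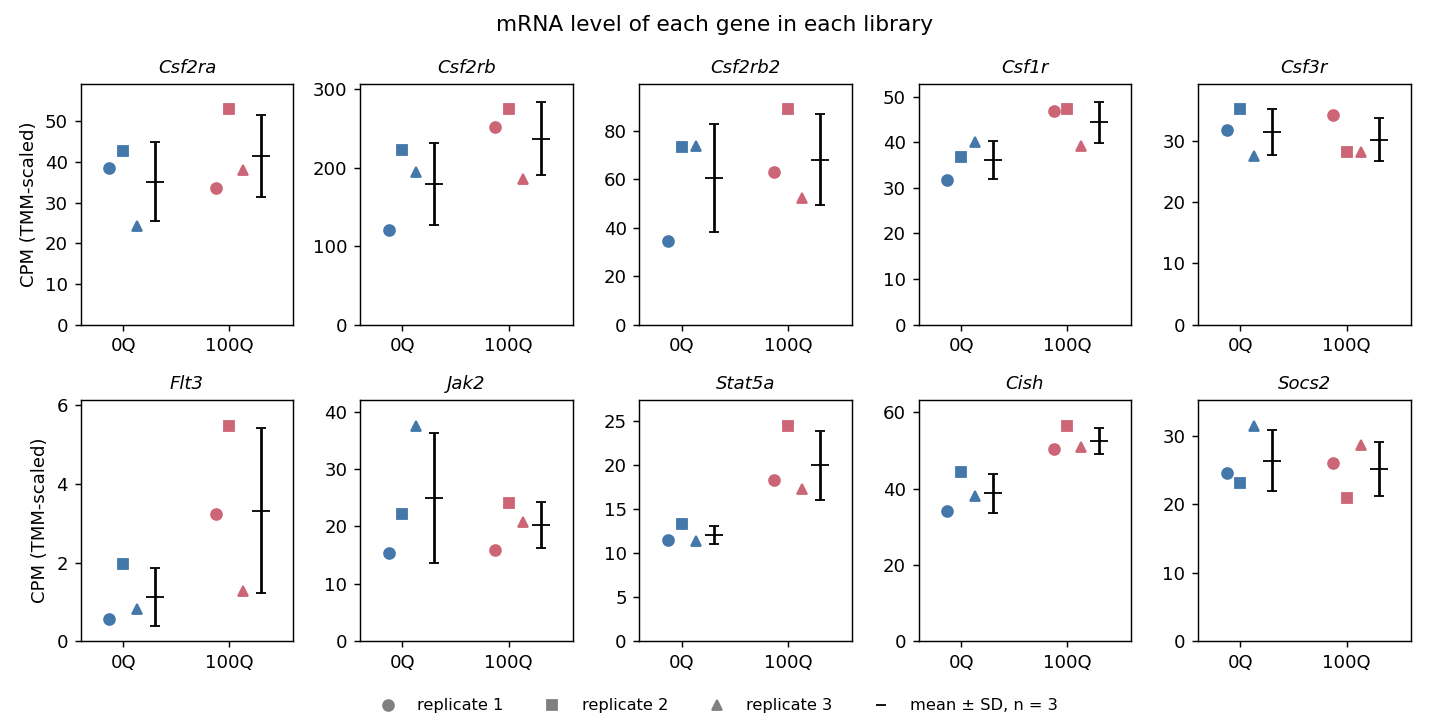
Level of each of the 10 genes, in TMM-scaled CPM on a linear axis from 0, in each library of 0Q (blue) and 100Q (red), with the mean and SD of 3 libraries beside the points. The 100Q libraries lie above the 0Q libraries for Stat5a and Cish, and for the other 8 genes the groups overlap.

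The common beta chain gene Csf2rb, which carries the signal of the GM-CSF receptor, had 121, 222 and 194 CPM in 0Q replicates 1, 2 and 3 and 251, 274 and 185 CPM in 100Q replicates 1, 2 and 3. The lowest library was 0Q replicate 1, the highest were 100Q replicates 1 and 2, and 100Q replicate 3 lay below 0Q replicates 2 and 3, so the groups overlapped. Its estimate was 0.40 (SE 0.19, 95% interval -0.01 to 0.81), with an unadjusted p of 0.0550 and an adjusted p of 0.999 by edgeR. Without 0Q replicate 1 the value was 0.18. In that library, log2 deviations from the mean over libraries had a Spearman rho of -0.19 with exon length across 4267 genes, which are not independent replicates, against -0.07 to 0.16 in the other 5 libraries. With each library's length trend removed the estimate of Csf2rb was 0.36. By edgeR its unadjusted p was under 0.05 with a replicate block (0.0213), with no filter (0.00989) and with 100Q replicate 3 thinned (0.0429). It was also under 0.05 without 0Q replicate 2 (0.0141) and without 100Q replicate 3 (0.0166). In every other setting it was above 0.05, such as by DESeq2 (0.0594), by limma-voom (0.0780) and by edgeR with library totals alone (0.116). Without 0Q replicate 1 it was 0.291 by edgeR, and without 100Q replicate 2 it was 0.219. The adjusted p passed in none of these settings.

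Csf2rb2, the beta chain of the IL-3 receptor alone, had 34.6, 73.1 and 73.6 CPM in 0Q against 63.1, 88.7 and 52.3 CPM in 100Q. As for Csf2rb, 0Q replicate 1 was the lowest library and 100Q replicate 2 the highest. The estimate was 0.17 (SE 0.27, 95% interval -0.40 to 0.73), and its sign changed without 0Q replicate 1 (-0.12) or without 100Q replicate 2 (-0.07). Csf2rb held 77.7%, 75.3% and 72.6% of the summed counts of the pair in 0Q and 79.9%, 75.5% and 78.0% in 100Q. That is a mean share of 75.2% ± 2.59 without queuine and of 77.8% ± 2.21 with it (SD over 3 libraries each). The shares differed by 2.62 percentage points, with an exact two-sided permutation p of 0.2, and a comparison of 3 with 3 libraries cannot give a p below 0.1. With reads of both genes added, which removes the division between them, the pair had 239 ± 74.1 CPM in 0Q against 305 ± 63.2 CPM in 100Q, and an estimate of 0.35 (SE 0.20, 95% interval -0.07 to 0.77, adjusted p = 0.999 by edgeR).

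The alpha chain gene Csf2ra (ENSMUSG00000059326, chromosome 19, 61212395 to 61216892, minus strand, 12 exons in its canonical transcript), which gives the receptor its specificity for GM-CSF, had 38.5, 42.6 and 24.2 CPM in 0Q against 33.7, 52.9 and 37.9 CPM in 100Q. The groups overlapped, and 0Q replicate 3 was the lowest library and 100Q replicate 2 the highest. Its estimate was 0.23 (SE 0.27, 95% interval -0.33 to 0.79, adjusted p = 0.999 by edgeR), and 0.02 without 100Q replicate 2. None of its 50-base windows occurred in the transcripts of another gene. Per kilobase of exons, Csf2rb was 1.26 to 3.23 times the level of Csf2ra in the 0Q libraries and 1.96 to 3.00 times in those of 100Q, so the beta chain transcript was the more abundant of the pair of GM-CSF receptor chains in each of the 6 libraries.

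**Figure D2:**
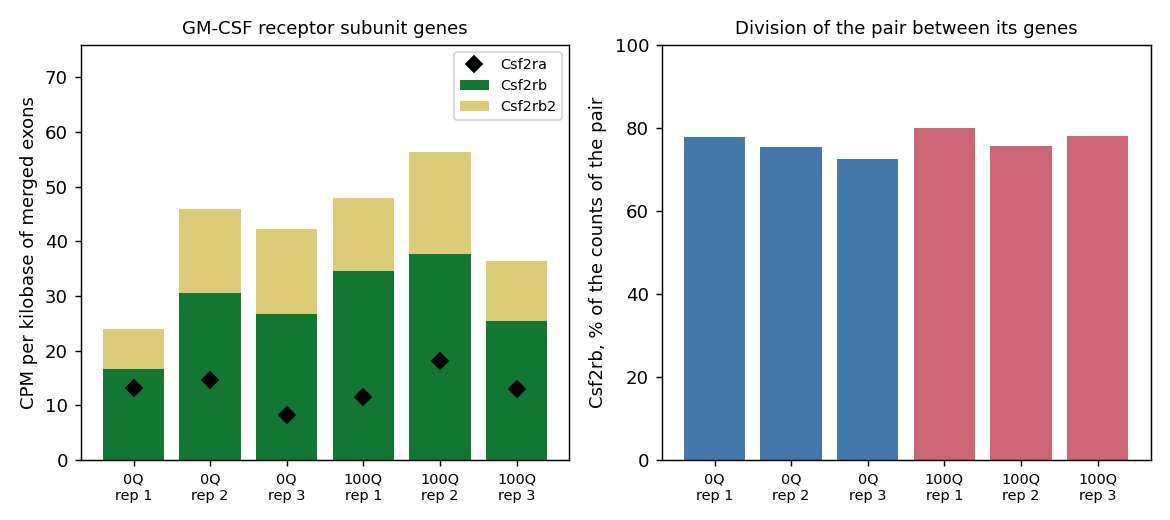
Left, level per kilobase of merged exons, in TMM-scaled CPM, of Csf2rb and Csf2rb2 as stacked bars and of Csf2ra as diamonds in each library, and right, the percent of the pair's expected counts held by Csf2rb. The stacks differ between libraries of the same group, lowest in 0Q replicate 1, while the share lies between 72.6% and 79.9% in all 6 libraries.

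The receptors for M-CSF, G-CSF and FLT3 ligand were each detected in all 6 libraries, and none passed the test. Csf1r, the M-CSF receptor of monocytes and macrophages (ENSMUSG00000024621, chromosome 18, 61229714 to 61266535), had 31.7, 36.8 and 40.0 CPM in 0Q against 46.8, 47.2 and 39.2 CPM in 100Q. Of the 100Q libraries, 2 lay above all of 0Q, and 100Q replicate 3 lay just under 0Q replicate 3. The estimate was 0.29 (SE 0.23, 95% interval -0.19 to 0.77). The library with the highest Csf1r, 100Q replicate 2, had the lowest macrophage marker sum, 1062 CPM, and 100Q replicate 1, with nearly the same Csf1r, had the highest, 1453 CPM. Their part in the value of Csf1r was not tested. Of the 50-base windows of Csf1r, 22.8% were shared with Hmgxb3, a gene on the opposite strand that overlaps its exons and had 107 counts over the 6 libraries.

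Csf3r, the G-CSF receptor of neutrophils and their precursors (ENSMUSG00000028859, chromosome 4, 125918262 to 125938236), had 31.7, 35.1 and 27.5 CPM in 0Q against 34.2, 28.2 and 28.2 CPM in 100Q. The 6 libraries were interleaved. The estimate was -0.06 (SE 0.25, 95% interval -0.60 to 0.47). Beside it, 11 of the 12 neutrophil markers lay below 0 (median estimate -0.23), where 50% of all tested genes lay above 0. Of the 12, 3 had an unadjusted p under 0.05 by edgeR, against 2.93% of all tested genes, and none passed the adjusted threshold. For 3 of them 100Q lay wholly below 0Q, against 3.84% of all tested genes. The part of these markers in the value of Csf3r was not tested.

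Flt3, the receptor of dendritic cell progenitors (ENSMUSG00000042817, chromosome 5, 147267551 to 147337483), was the least abundant of the 10 per kilobase of exons and rested on few reads. Its counts were 3, 14 and 3 in 0Q and 17, 26 and 24 in 100Q. Scaled, these were 0.567, 1.97 and 0.833 CPM in 0Q against 3.23, 5.48 and 1.27 CPM in 100Q. The deepest library, 100Q replicate 3, lay below 0Q replicate 2, and the exact 95% Poisson intervals of these, 0.813 to 1.89 and 1.08 to 3.31 CPM, overlapped (they cover counting error only). At 1.48 its estimate was the largest of the 10 and the least precise (SE 0.93, 95% interval -0.48 to 3.43, adjusted p = 0.999 by edgeR). It was 0.68 by limma-voom, 0.92 without 100Q replicate 2 and 2.21 without 0Q replicate 2. Of the 10 dendritic cell markers 7 had estimates above 0, with a median of 0.13. Of the 5 tested progenitor markers 1 did, with a median of -0.38, where 50% of all tested genes lay above 0. The part of these markers in the value of Flt3 was not tested.

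Jak2, the kinase held by the beta chain (ENSMUSG00000024789, chromosome 19, 29228677 to 29290505, 24 exons), had 15.3, 22.1 and 37.5 CPM in 0Q against 16.0, 24.0 and 20.8 CPM in 100Q. The spread within 0Q covered all 3 libraries of 100Q. The estimate was -0.29 (SE 0.34, 95% interval -1.01 to 0.43), and it was 0.11 without 0Q replicate 3, the library with the highest level.

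Stat5a, the transcription factor that JAK2 activates (ENSMUSG00000004043, chromosome 11, 100750177 to 100776065, plus strand), had 11.5, 13.3 and 11.4 CPM in 0Q against 18.3, 24.4 and 17.2 CPM in 100Q. All libraries of 100Q lay above all of 0Q. The nearest were 0Q replicate 2, with 94 reads and an exact 95% Poisson interval of 10.7 to 16.2 CPM, and 100Q replicate 3, with 326 reads and an interval of 15.4 to 19.2 CPM, and these intervals overlapped. Mean levels were 12.1 ± 1.04 and 19.97 ± 3.90 CPM (SD, n = 3 each). The estimate was 0.72 (SE 0.33, 95% interval 0.02 to 1.42), with an unadjusted p of 0.0447 and an adjusted p of 0.999 by edgeR. Leaving out 100Q replicate 2 gave 0.55 and leaving out 100Q replicate 3 gave 0.82, the lowest and highest of 6 such fits. In all 6 the unadjusted p by edgeR was above 0.05, as it was by limma-voom (0.0716). By edgeR it was also above 0.05 with a replicate block (0.0553), no filter (0.0549), 100Q replicate 3 thinned (0.0529) and the length trend removed (0.0543). It was under 0.05 by DESeq2 (0.0392). With other scalings, a filter of 10 CPM in 3 libraries or a non-robust fit it was 0.0413 to 0.0474 by edgeR.

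Stat5b, the neighbouring close relative of Stat5a, had 4.15, 5.92 and 3.06 CPM in 0Q against 7.22, 9.27 and 3.49 CPM in 100Q, and an estimate of 0.57 (SE 0.56). Coding sequences of these genes were identical at 90.9% of aligned bases, and 15.6% of the windows of Stat5a also occurred in Stat5b. Reads from that part can be divided between them, which leaves the split uncertain. Stat5a also overlaps exons of Stat3, on the opposite strand, by 142 bases.

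Cish, the inhibitor that blocks the docking of STAT5 on activated receptors (ENSMUSG00000032578, chromosome 9, 107173225 to 107179983, 3 exons), had 34.2, 44.3 and 38.1 CPM in 0Q against 50.4, 56.5 and 50.9 CPM in 100Q. Again all libraries of 100Q lay above all of 0Q. The nearest were 0Q replicate 2, whose exact Poisson interval was 39.5 to 49.5 CPM, and 100Q replicate 1, with 44.5 to 56.8 CPM. Mean levels were 38.8 ± 5.09 and 52.6 ± 3.37 CPM (SD, n = 3 each). The estimate was 0.43 (SE 0.21, 95% interval -0.02 to 0.89), with an unadjusted p of 0.0594 and an adjusted p of 0.999 by edgeR, and 0.35 to 0.54 with 1 library left out. Of its windows 10.7% were shared with Gm17041, a long noncoding RNA on the opposite strand that had 486 counts over the 6 libraries.

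Socs2, the other inhibitor of the pair (ENSMUSG00000020027, chromosome 10, 95219523 to 95253929, minus strand), had 24.6, 23.1 and 31.4 CPM in 0Q against 26.0, 20.9 and 28.6 CPM in 100Q. The libraries were interleaved, and the estimate was -0.06 (SE 0.28, 95% interval -0.64 to 0.53). It was 0.041 by limma-voom and 0.083 without 0Q replicate 3. The intervals of Cish and Socs2 overlapped, and the difference between these genes was not tested.

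**Figure D3:**
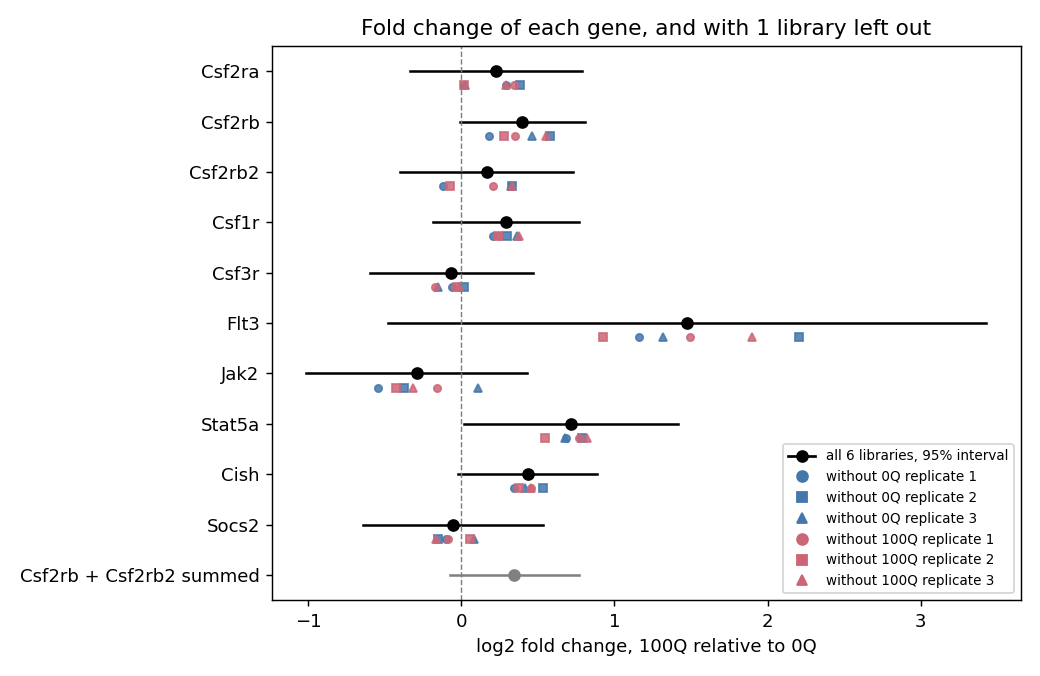
Log2 fold change of 100Q relative to 0Q for each of the 10 genes from all 6 libraries (black, with the 95% interval) and with each library left out (small marks), and for the summed pair of Csf2rb and Csf2rb2 (grey). The interval of Stat5a, 0.02 to 1.42, is the only one that does not cross 0, and estimates of Csf2rb2, Csf3r, Jak2 and Socs2 lie on both sides of 0 when a library is left out.

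Per kilobase of merged exons, a scale on which genes can be set side by side, the order of the mean levels over the 6 libraries was Csf2rb (28.6 ± 7.47 CPM per kilobase), Csf2rb2 (13.5 ± 3.99), Csf2ra (13.1 ± 3.25), Cish (7.12 ± 1.32), Csf3r (6.04 ± 0.654), Csf1r (5.47 ± 0.807), Jak2 (3.57 ± 1.27), Stat5a (1.94 ± 0.609), Socs2 (1.69 ± 0.249) and Flt3 (0.342 ± 0.285), with the SD over 6 libraries. Neighbours whose means differed by less than the larger of their SDs were Csf2rb2 and Csf2ra, Cish and Csf3r, Csf3r and Csf1r, and Stat5a and Socs2. Among 10538 tested genes with a length, Csf2rb stood at percentile 88.9 and Flt3 at percentile 5.41. The length matters most for Socs2, whose many annotated isoforms merge to 15258 bases of exons against 2540 in its canonical transcript. On the length of the canonical transcript Socs2 had 10.1 CPM per kilobase and took place 5 instead of 9, while Csf2rb stayed first with 43.6 and Flt3 last with 0.608.

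Other genes of the pathway were read from a list of 79, of which 64 were tested. None passed the test, at an edgeR adjusted p under 0.05. At an unadjusted p under 0.05 there were 2, Stat2 and Il10rb, both higher in 100Q, which is 3.12% of the 64 against 2.93% of all tested genes. Among the 64 the estimate was positive for 41 and negative for 23 (64.1% positive, against 50% of all tested genes), and its median was 0.15. Groups did not overlap for 5 of them, or 7.81% against 8.24% of all tested genes, with 100Q above for 4.

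Transcripts of the ligands were rare. Csf2, which encodes GM-CSF, had 0 counts in 5 libraries, where 3 counts would be 0.423 to 0.833 CPM, and 8 counts in 100Q replicate 3. Csf3, Il3, Il5, Il13 and Il34 had 0 counts in all 6, and in the deepest library 3 counts are 0.159 CPM. Only Csf1, which encodes M-CSF, and Il4 were tested among the 10 ligands, at mean levels of 6.55 and 2.09 CPM in 0Q against 10.1 and 4.83 CPM in 100Q.

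Among other receptors, 12 of 16 were tested and 6 had estimates above 0. Il2rg, the common gamma chain, had 204 ± 37.6 and 221 ± 37.3 CPM. Il10rb, a chain of the IL-10 receptor, had 36.8, 42.3 and 13.6 CPM in 0Q against 82.5, 43.6 and 66.0 CPM in 100Q. All of its 100Q libraries lay above those of 0Q, by a small margin between 0Q replicate 2 and 100Q replicate 2, and its estimate was 1.03 (SE 0.33, unadjusted p = 0.00544 and adjusted p = 0.999 by edgeR). Ifngr1, a chain of the interferon gamma receptor, was the only tested receptor with 100Q wholly below 0Q, at 47.4 ± 2.37 and 38.1 ± 5.88 CPM. The alpha chains that share the beta chain, Il3ra and Il5ra, had 18 and 33 counts over the 6 libraries and were not tested.

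Of the JAKs and STATs other than Jak2 and Stat5a, 8 of 9 were tested and 7 had estimates above 0, and the median estimate was 0.45. Stat2, which acts in the interferon response, had 6.80, 7.90 and 6.39 CPM in 0Q against 12.5, 26.3 and 9.41 CPM in 100Q, an estimate of 1.17 (SE 0.44, unadjusted p = 0.0154 and adjusted p = 0.999 by edgeR). Stat3, which acts below the G-CSF and IL-10 receptors, had 24.6, 30.9 and 25.3 CPM in 0Q against 38.8, 37.7 and 35.5 CPM in 100Q, an estimate of 0.47 (SE 0.25). Neither gene showed any overlap between media, with 100Q higher.

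Of 19 negative regulators 18 were tested and 12 had estimates above 0, with a median of 0.14. Ptprc, which encodes the phosphatase CD45, had 135 ± 6.58 CPM in 0Q against 155 ± 9.04 CPM in 100Q, an estimate of 0.19 (SE 0.14), with 100Q wholly above 0Q. Pias2, a SUMO ligase that can restrain STATs, had 4.48 and 9.08 CPM, and Socs4, a relative of Socs2, had 8.34 and 13.05 CPM. All 13 adaptors were tested, with a median of 0.18, and Ywhaz, a 14-3-3 protein, had 494 ± 38.4 and 457 ± 78.7 CPM. The phosphoinositide 3-kinase subunits Pik3cd and Pik3r1 had log2 fold changes of 0.46 (SE 0.28) and -0.52 (SE 0.33).

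Known STAT5 targets other than Cish and Socs2 did not share a direction. Of 12 listed, 11 were tested, 6 with estimates above 0 and 5 below, and a median of 0.12. Id2, a regulator of dendritic cell development, had 589 ± 8.24 CPM in 0Q against 640.4 ± 89.7 CPM in 100Q. Mcl1, a survival factor, had 81.3 ± 17.3 and 98.2 ± 14.7 CPM, and Pim2, a survival kinase, had 4.00 ± 2.82 and 1.61 ± 1.52 CPM. None of these groups was separated.

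**Figure D4:**
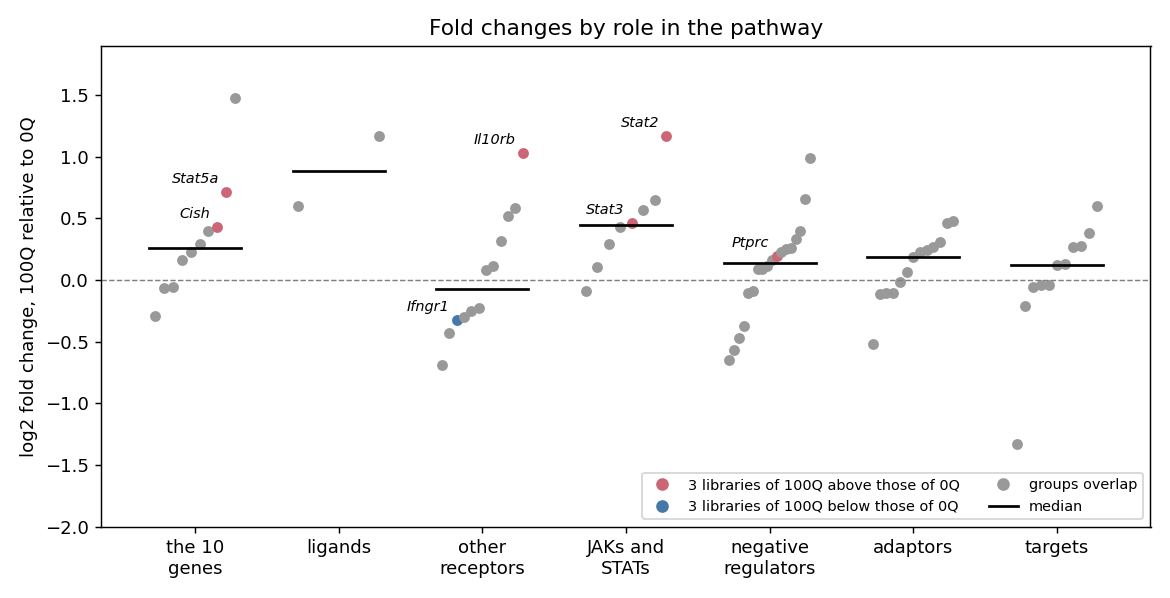
Log2 fold change of 100Q relative to 0Q for the 10 genes and for the tested genes of the pathway list by role, with each group's median as a bar. Coloured points are genes whose 3 libraries of 100Q lie wholly above (red) or below (blue) those of 0Q, which are Stat5a, Cish, Il10rb, Stat2, Stat3 and Ptprc above and Ifngr1 below.

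The genes whose pattern over the 6 libraries was most like that of Csf2rb, by Pearson's r of log2 CPM among 4269 genes at 20 CPM or more, were Mapkapk3, Eif4g2 and Mfge8, each with an r of 0.99. Mapkapk3, a kinase of the p38 pathway, had 26.8, 51.3 and 46.7 CPM in 0Q against 59.3, 64.7 and 45.9 CPM in 100Q. Like Csf2rb it was lowest in 0Q replicate 1 and highest in 100Q replicate 2. Eif4g2, a translation initiation factor, had an estimate of 0.34 and Mfge8, a secreted protein that tags dying cells for uptake, one of 0.32. These are picks of the best of many genes over few libraries that share depth and scaling, and are given as a description. Of the other 9 genes described here, Csf1r, Csf2rb2 and Flt3 had an r with Csf2rb of 0.90, Cish 0.82 and Stat5a 0.72. Jak2, Csf2ra, Csf3r and Socs2 had 0.27, 0.25, 0.04 and -0.30. Among the r of the 4269 genes, these values stood at percentiles 45.7 (Socs2) to 96.7 (Csf1r), with Csf2ra at 68.7 and Stat5a at 87.4. Flt3 and Stat5a averaged under 20 CPM in both groups, and Csf2rb2 shares reads with Csf2rb.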

How the data were processed

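The authors deposited expected counts per gene for 6 mRNA-seq libraries, not scaled or pooled. The submitters' processing notes name STAR, RSEM and FastQC as tools and mm39 (GRCm39) as the build. No source used here gives tool versions, the annotation release or strandedness, and antisense genes may therefore share reads. Estimated counts that are shared between similar genes are not whole, which held for 5.51% to 10.5% of all 57132 rows in a library. Only 13782 to 18344 of the rows had a count above 0, and 0 is whole. The percentage among detected genes was therefore higher. Symbols came from GENCODE mouse release 39, and 502 identifiers had no match.

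Counts were rounded and tested with edgeR 4.0.16 in R 4.3.3 (filterByExpr, TMM, robust quasi-likelihood fit, Benjamini-Hochberg adjustment, threshold 0.05). Standard errors are the absolute log2 fold change over the root of F. CPM used TMM-scaled totals of the tested genes. Alternatives were DESeq2 1.42.0, limma-voom (limma 3.58.1), other scalings and filters, a replicate block, thinning, and each library left out. The edgeR steps were run on simulated counts, with large changes placed in genes at 20 CPM or more. That check does not show power for smaller changes or lower counts. The rule for named genes took all 10, the most abundant and the 2 with the smallest p in each role of the pathway list, and the 3 most like Csf2rb. The result of 1 gene that this rule names is not reported here. Stat5b, Itgax, Zbtb46, Kmo, Batf3, Cd3d, Cd3e, Il3ra and Il5ra are named outside this rule. So are Prg2, Epx, Ear6, Siglecf, Ccr3, the ligands at 0 or few counts and genes that share windows. The 10 genes and the lists were chosen with earlier results of these data known. Shared windows were exact matches of 50 bases in GENCODE transcripts on either strand, and coding sequences were aligned with Biopython 1.88.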

Additional observations from a re-analysis of the deposited data

How the results depend on the processing

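In every setting run, 0 of the 10 genes and 0 pathway genes passed the threshold. The count over all genes was 0 as reported and ranged from 0 to 2 over omitted libraries, where leaving out 0Q replicate 1 gave 2 (Gm46542, Gvin2) and leaving out 0Q replicate 2 gave 1 (Gm2446), all named after their values were seen; the cause was not tested. The median log2 fold change of the 10 genes, 0.26, ranged from 0.15 to 0.36 over omitted libraries, and that of the pathway genes, 0.15, from 0.10 to 0.25. In other settings they lay between 0.20 and 0.30 and between 0.11 and 0.24. The difference in the share of Csf2rb in the pair ranged from 1.31 to 3.90 percentage points over omitted libraries, with 2.62 as reported. Signs changed in 6 of 60 values with a library left out: Csf2rb2 was -0.12 without 0Q replicate 1 and -0.07 without 100Q replicate 2 (range -0.12 to 0.33), Csf3r 0.016 without 0Q replicate 2 (range -0.17 to 0.016), Jak2 0.11 without 0Q replicate 3 (range -0.54 to 0.11), and Socs2 0.083 without 0Q replicate 3 and 0.05 without 100Q replicate 2 (range -0.16 to 0.083). Of 101 values in other settings 1 changed, Socs2 at 0.041 by limma-voom. Under a replicate block 0 genes passed, the median of the 10 genes was 0.27, and 0 of 10 signs changed. Deviations from the group means correlated at 0.00, 0.19 and -0.08 between same-numbered libraries, against -0.23 to 0.24 between the others. With 3 libraries a group, these values cannot show whether the numbers mark pairs. The labels give no design formula, so the main fit used the group alone, with the replicate block as an alternative. At 10 CPM or more in 3 libraries Flt3 was not tested. Removal of the length trend was chosen after seeing the data, and all other settings were planned. Depth limits Flt3 most, at 3 to 26 reads a library.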
